A study of Mus musculus with 25 samples.

Results

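The anterior lateral palate was compared with the anterior medial palate of the mouse embryo at E14.5, soon after the palatal shelves have met in the midline. The members are the 6 libraries of those compartments, 3 anterior lateral and 3 anterior medial, of 25 libraries in all, and the 10427 genes of 37406 listed that reached 5 RPKM (reads scaled to the length of the transcript and to the total of reads of the library) in at least 3 of the 6 libraries. The wider series holds 8 compartments, the lateral, medial, oral and nasal palate at an anterior and at a posterior level. The embryos of both groups were wild type CD1 mice of that age, untreated, with no transgene or deleted allele. Tissue was cut from sections by laser capture microdissection, total RNA was amplified and the libraries were sequenced as single-end reads. A compartment is a piece of tissue and holds mesenchyme together with vessels, nerve and whatever epithelium was cut with it. In such bulk samples fewer cells of a type and less RNA per cell cannot be told apart. The labels number the libraries within a compartment, and the study's text calls them biological replicates, but neither says whether they came from separate litters, so the p-values measure the spread between these libraries.

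The secondary palate grows as a pair of shelves of neural crest mesenchyme covered by epithelium. The shelves rise above the tongue, meet in the midline and fuse, and bone and glands later form within them. Lateral mesenchyme lies towards the maxilla, tooth germs and the vessels that enter the palate, and medial mesenchyme lies next to the fusing seam. Patterning of the shelves is known to depend on transcription factors such as the odd-skipped related proteins and Msx1, and on signals of the hedgehog, BMP, FGF, Wnt, TGF-beta and retinoic acid families. In the anterior palate Shox2 and Msx1 are known marks, and Meox2, Tbx22 and Barx1 mark the posterior palate.

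Shox2 was higher, and Meox2 and Barx1 were lower, in the 6 libraries than the means of posterior lateral and medial palate. Msx1, the other anterior mark named above, was low in the medial libraries, with values given below. Shox2 stood at 149, 144 and 156 RPKM in the lateral libraries and 116, 106 and 113 RPKM in the medial libraries, against a mean of 16.0 RPKM in posterior lateral and 5.12 RPKM in posterior medial palate. Meox2 stood at 7.33, 4.26 and 3.96 RPKM in lateral and 6.51, 8.31 and 6.35 RPKM in medial libraries, against means of 108 and 175 RPKM in the posterior compartments. Barx1 did not exceed 6.77 RPKM in any of the 6 libraries, and its posterior means were 76.1 and 88.3 RPKM.

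The RPKM values of short genes with 1 exon gave the total of reads by which each library was scaled. It was 2580000 to 3000000 in lateral and 3240000 to 3280000 in medial libraries, so that 5 RPKM on a transcript of 2000 bases stands for 25.8 to 30.0 reads in lateral and 32.4 to 32.8 reads in medial libraries. Between 16691 and 16830 genes were above 0 in lateral and between 16418 and 16768 in medial libraries. On the log2 scale and across genes, Pearson's r was 0.929 to 0.947 among lateral libraries, 0.920 to 0.937 among medial libraries and 0.878 to 0.911 between the groups. The names of the alignments place the 3 medial libraries in 1 sequencing run and the lateral libraries in 2 others, 2 in one and replicate 3 in the other. No run holds both groups, and in these 6 libraries a difference of run and a difference of compartment cannot be told apart. Lateral replicate 3 stood apart in a few bone and epithelial genes. Ibsp, a bone matrix protein, stood at 0.734, 0.170 and 93.9 RPKM in lateral and 5.63, 0.312 and 0.315 RPKM in medial libraries, and Shh, the hedgehog ligand of palate epithelium, at 0.538, 0.125 and 15.4 RPKM in lateral and 0.115, 0.114 and 0.412 RPKM in medial libraries. Neither gene reached the expression minimum.

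Genes called higher in the lateral palate included 5 of 10 arterial genes, Actg2 and Myh11 of smooth muscle, the retinoic acid enzyme Aldh1a2 and the factor Osr1. Genes called higher in the medial palate included galanin, Tnn, Gsc and 5 of 10 cartilage genes. In limma's test 262 of 10427 genes (2.51%) had an adjusted p under 0.05, 149 (1.43%) higher in lateral and 113 (1.08%) higher in medial palate. The values of the 3 lateral and 3 medial libraries did not overlap for any of the 262, and over all genes tested 21.3% did not overlap. Of the 149 lateral genes 73 reached 5 RPKM in lateral libraries alone, and of the 113 medial genes 36 in medial libraries alone, so the expression minimum itself fixed the direction of these. The median fold among the genes higher in lateral was 2.27, and 103 of the 149 differed by more than 2-fold. Among the genes higher in medial the median fold was 2.32, and 72 of the 113 differed by more than 2-fold. Fold changes here are on the scale of log2(RPKM + 0.1) and understate the change of genes of low level. At the study's own thresholds, a P under 0.05, taken here without adjustment, with a fold over 2, 247 genes (2.37%) were past both limits, 147 on the lateral and 100 on the medial side.

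**Figure D1:**
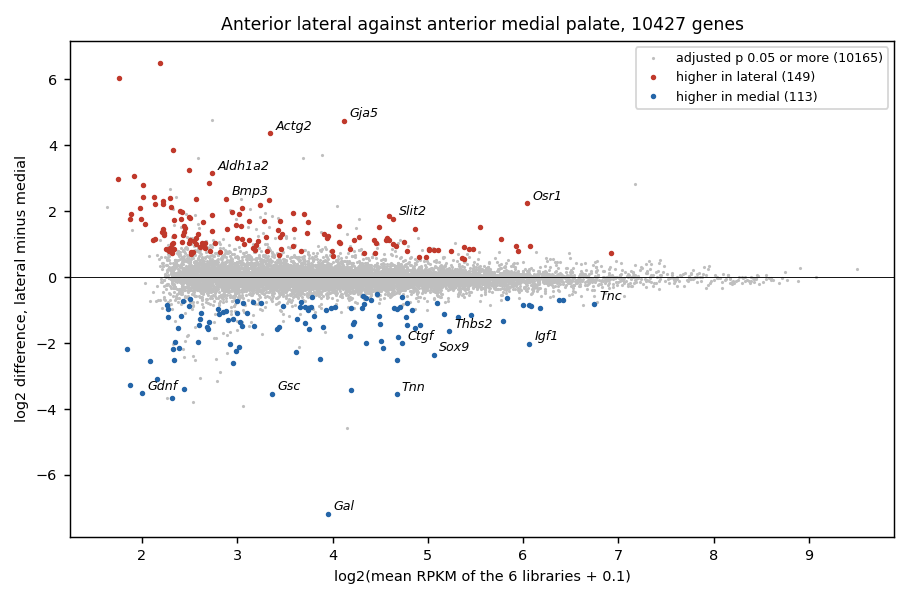
Each of the 10427 genes is a point, with the log2 of its mean RPKM over the 6 libraries plus 0.1 on the horizontal axis and its log2 difference, lateral minus medial, on the vertical axis. Red points are the 149 genes higher in lateral and blue points the 113 genes higher in medial at an adjusted p under 0.05. Gal lies lowest of all at -7.18, and the red points above 6 are Mirlet7e and Gkn3, listed at 0 in all medial libraries.

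The count changed with single libraries and with the fit. It was 186 without lateral replicate 1, 129 without lateral replicate 2, 104 without lateral replicate 3, 190 without medial replicate 1, 130 without medial replicate 2 and 226 without medial replicate 3, and 88 of the 262 genes were called in all 6 of those fits. Over all 25 libraries, which share 1 estimate of the spread, 31 genes were called, all among the 262. With the run as a further term in that fit no gene was called, 154 of 10427 had an unadjusted p under 0.05, 256 of the 262 kept their sign and 75 of the 262 kept it with an unadjusted p under 0.05. Lateral replicates 1 and 2 are alone in their run, so in the fit with the run its term takes up both. The lateral estimate of that fit thus rests on lateral replicate 3 and on run terms taken from other compartments. Posterior nasal is the one compartment with a library in the medial run and one in a lateral run, that of lateral replicate 3. Its difference between those runs had the sign of the compartment difference for 48 of the 149 lateral genes (32.2%, against 42.2% of all genes tested) and for 66 of the 113 medial genes (58.4%, against 57.8% of all genes tested). The median of that difference was -0.24 (log2) over the lateral genes and -0.08 over the medial genes. These are single libraries of another compartment, and the part of the run in the calls cannot be told from them.

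The gene of largest fold in the lateral direction, among those not listed at 0 in a whole group, was Gja5 (gene 14613, chromosome 3, 96836339 to 96857557 in mm9), a gap junction protein of arterial endothelium. Gja5 stood at 28.1, 42.4 and 30.0 RPKM in the lateral libraries and 0.966, 1.93 and 0.779 RPKM in the medial libraries, a log2 difference of 4.74 ± 0.32 (SE, n = 3 per group, limma adjusted p = 0.000799). Actg2 (gene 11468, chromosome 6, 83462903 to 83486245 in mm9), the gamma actin of smooth muscle, stood at 18.5, 21.9 and 17.0 RPKM in lateral and 1.94, 0.645 and 0.435 RPKM in medial libraries (4.36 ± 0.44, adjusted p = 0.00429). Every lateral value of these genes lay far above every medial value. Myh11, the myosin heavy chain of smooth muscle, was lower in level, at 5.95, 6.62 and 7.35 RPKM in lateral and 0.640, 0.938 and 0.565 RPKM in medial libraries (3.07 ± 0.19, adjusted p = 0.000556). Lrfn5, which encodes a synaptic adhesion protein, read 10.7, 7.76 and 8.81 RPKM in lateral and 0.590, 0.147 and 1.40 RPKM in medial libraries (3.84 ± 0.57, adjusted p = 0.0169). Thsd7b, which encodes a protein with thrombospondin domains, read 6.28, 14.7 and 9.50 RPKM in lateral and 0.877, 0.710 and 1.21 RPKM in medial libraries (3.26 ± 0.31, adjusted p = 0.00344). Lateral replicate 2 was the highest of the 3 lateral libraries for Gja5, Actg2 and Thsd7b.

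The other lateral genes of largest fold were of mixed kinds. Gabra4, a subunit of the GABA receptor, was at 6.21, 6.005 and 5.25 RPKM in lateral and 0.451, 0.450 and 1.26 RPKM in medial libraries. Lrrc4c, a netrin-G ligand, was at 13.5, 9.48 and 10.7 and 2.12, 0.662 and 2.02 RPKM in the same order. Cd55, which protects cells from complement, was at 6.02, 6.72 and 8.06 and 1.47, 0.626 and 0.774 RPKM. The log2 differences of these 3 genes were 2.99 ± 0.34, 2.87 ± 0.40 and 2.81 ± 0.28, with adjusted p of 0.00616, 0.0132 and 0.00386. Fap, a cell surface protease of fibroblasts, Sdpr, a component of caveolae, Cyfip2, a regulator of actin, and Ncam2, an adhesion protein, had log2 differences of 2.44 ± 0.16, 2.39 ± 0.19, 2.38 ± 0.23 and 2.35 ± 0.20. All 15 genes of largest fold in the lateral direction reached 5 RPKM in lateral libraries alone, so the expression minimum fixed their direction. Of these 15 genes 12 were called whichever library was left out. The exceptions were Lrfn5, Lrrc4c and Bmp3, with a highest adjusted p of 0.0702, 0.0571 and 0.0973, each without lateral replicate 3.

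Gal (gene 14419, chromosome 19, 3409917 to 3414457 in mm9), the neuropeptide galanin, had the largest difference of all in the medial direction. It was listed at 0 in lateral replicates 1 and 2 and at 0.555 RPKM in lateral replicate 3, against 30.6, 13.5 and 47.9 RPKM in the medial libraries (-7.18 ± 0.77, adjusted p = 0.00514). Its log2 difference ran from -9.46 to -4.61 over the alternatives, since it rests on values near 0. Slc24a2, a sodium and calcium exchanger, stood at 0.553, 0.983 and 0.403 RPKM in lateral and 10.3, 10.4 and 6.79 RPKM in medial libraries (-3.68 ± 0.30, adjusted p = 0.00185). Tnn (gene 329278, chromosome 1, 162015163 to 162083706 in mm9), a tenascin of bone-forming connective tissue, was at 4.18, 3.86 and 3.66 RPKM in lateral and 52.8, 43.0 and 44.8 RPKM in medial libraries (-3.55 ± 0.13, adjusted p = 2.80e-05). Tnn had the smallest SE of the 15 medial genes of largest fold, and its lowest medial value was more than 10 times its highest lateral value. Gdnf (gene 14573, chromosome 15, 7761011 to 7787575 in mm9), a neurotrophic factor, was at 0.736, 0.475 and 0.443 RPKM in lateral and 6.86, 7.73 and 7.27 RPKM in medial libraries (-3.53 ± 0.18, adjusted p = 0.000242). Grin3a, a subunit of the NMDA receptor, read 0.696, 0.967 and 0.723 RPKM in lateral and 12.3, 12.01 and 5.30 RPKM in medial libraries. Hs3st3b1, a heparan sulfate sulfotransferase, read 1.02, 0.610 and 0.905 RPKM in lateral and 9.83, 7.98 and 5.85 RPKM in medial libraries. 1500015O10Rik, a gene known only by its clone name in the table, read 4.04, 7.50 and 13.0 RPKM in lateral and 38.3, 47.2 and 43.0 RPKM in medial libraries. Grin3a, Hs3st3b1 and 1500015O10Rik had adjusted p of 0.00328, 0.00170 and 0.0163. Except for Prph, 1500015O10Rik, Krt17 and Sox9, the 15 medial genes of largest fold reached 5 RPKM in medial libraries alone, which fixed their direction. Of the 15 genes of largest fold in the medial direction 11 were called whichever library was left out, and the exceptions were Prph, 1500015O10Rik, Krt6a and Krt17, with a highest adjusted p of 0.0687 (without medial replicate 2), 0.0695 (without medial replicate 2), 0.102 (without medial replicate 1) and 0.0629 (without medial replicate 1).

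**Figure D2:**
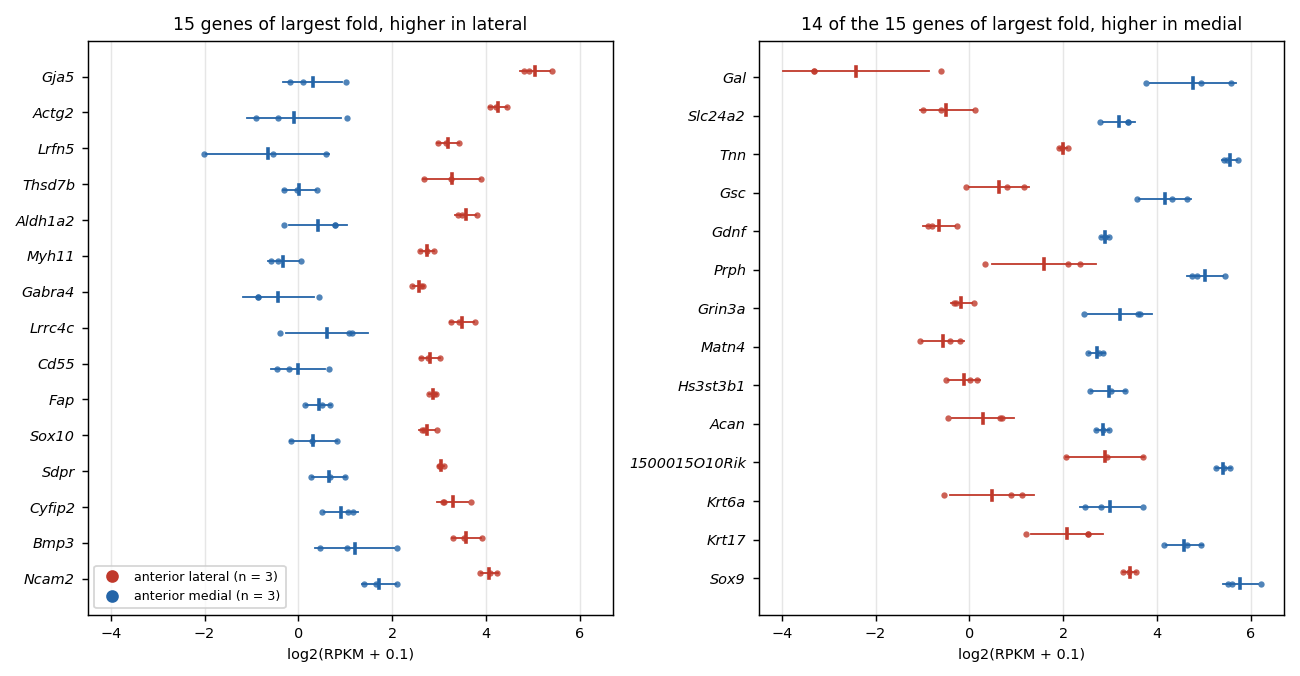
Points are the values of single libraries as log2(RPKM + 0.1), red for the 3 anterior lateral and blue for the 3 anterior medial libraries, thick marks are group means and thin lines span 1 SD to either side. The left panel holds the 15 lateral genes of largest fold and the right panel 14 of the 15 medial ones. Red and blue points overlap for none of the genes drawn, since only genes without overlap were chosen.

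Transcription factors of the palate mesenchyme differed in both directions. Of 50 tested members of a list of 80, 6 were higher in lateral (Osr1, Osr2, Msx1, Gata2, Ebf1 and Pou3f3), 9 were higher in medial (Prrx2, Gsc, Six4, Ebf3, Nr2f1, Snai1, Mkx, Id1 and Id4) and 35 did not pass. The median log2 difference of the 50 was -0.27, where all genes tested had a median of -0.03. Gata2 and Pou3f3 reached the minimum in lateral libraries alone and Gsc in medial libraries alone, which fixed their direction. Beside the counts of this and every later list, 1.43% of all genes tested were called higher in lateral and 1.08% higher in medial. Osr1 (gene 23967, chromosome 12, 9581248 to 9588306 in mm9), an odd-skipped related zinc finger factor, stood at 98.4, 113 and 114 RPKM in lateral and 23.9, 22.6 and 22.2 RPKM in medial libraries (2.24 ± 0.12, adjusted p = 0.000242). Its paralog Osr2, needed for growth of the shelves, stood at 85.8, 60.1 and 96.5 RPKM in lateral and 38.6, 40.1 and 44.1 RPKM in medial libraries (0.96 ± 0.19, adjusted p = 0.0450). The medial values of Osr1 lay within 2 RPKM of each other. Msx1, a homeobox factor of the anterior palate, read 12.1, 13.9 and 11.4 RPKM in lateral and 2.34, 2.45 and 5.95 RPKM in medial libraries (1.90 ± 0.33, adjusted p = 0.0310). Gata2 read 8.56, 15.8 and 12.01 RPKM in lateral and 2.46, 2.18 and 4.51 RPKM in medial libraries, and Ebf1 read 21.98, 19.1 and 19.7 RPKM in lateral and 7.45, 3.54 and 5.59 RPKM in medial libraries. Pou3f3, a POU domain factor, read 5.03, 5.98 and 5.56 RPKM in lateral and 1.30, 1.29 and 2.21 RPKM in medial libraries (adjusted p = 0.0195, 0.0102 and 0.00693 for Gata2, Ebf1 and Pou3f3).

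On the medial side Gsc, a homeobox factor needed for craniofacial bones, stood at 24.8, 20.0 and 11.7 RPKM against 2.14, 0.851 and 1.65 RPKM in the lateral libraries (-3.54 ± 0.37, adjusted p = 0.00447). Mkx, a homeobox factor of tendon, stood at 34.0, 29.7 and 20.2 RPKM against 9.36, 5.91 and 8.98 RPKM (-1.77 ± 0.25, adjusted p = 0.0132), and Snai1, a zinc finger factor of mesenchymal cells, at 56.2, 31.0 and 35.1 RPKM against 14.4, 14.2 and 14.2 RPKM (-1.46 ± 0.22, adjusted p = 0.0168). These 3 genes varied more among medial than among lateral libraries in RPKM. Prrx2, a homeobox factor of mesenchyme, and Nr2f1, an orphan nuclear receptor, differed less, with log2 differences of -0.84 ± 0.13 and -0.78 ± 0.11. Six4 and Ebf3 were the smallest called differences of the list, at -0.57 ± 0.11 and -0.52 ± 0.10. The calls of Osr1, Gsc, Ebf1, Pou3f3 and Id4 held whichever library was left out, and the other calls of the list did not. Osr2 and Msx1 had a highest adjusted p of 0.144 without lateral replicate 3 and of 0.110 without medial replicate 2. The other marks of the anterior palate were not called, with Alx1 at 76.7, 96.1 and 89.0 RPKM in lateral and 39.0, 54.4 and 65.1 RPKM in medial libraries (adjusted p = 0.117) and Hpse2 at 19.0, 31.4 and 23.8 and 10.9, 15.1 and 15.5 RPKM (adjusted p = 0.116).

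Retinoic acid is made from retinol in steps, the last by retinaldehyde dehydrogenases, and is cleared by enzymes of the Cyp26 family. Of 13 tested members of the pathway 3 were higher in lateral and 1 was higher in medial. Aldh1a2 and Stra6 reached the minimum in lateral libraries alone, which fixed their direction. Aldh1a2 (gene 19378, chromosome 9, 71063596 to 71144050 in mm9), which makes retinoic acid, stood at 10.5, 13.98 and 11.1 RPKM in lateral and 1.62, 1.62 and 0.713 RPKM in medial libraries (3.15 ± 0.30, adjusted p = 0.00328). Stra6, a retinol transporter, stood at 10.1, 13.2 and 7.76 RPKM in lateral and 1.75, 3.28 and 3.28 RPKM in medial libraries (1.89 ± 0.28, adjusted p = 0.0178). Dhrs3, which turns retinaldehyde back to retinol, stood at 18.7, 24.2 and 21.2 RPKM in lateral and 9.40, 8.12 and 8.05 RPKM in medial libraries (1.31 ± 0.14, adjusted p = 0.00454). These 3 calls were genes of a synthesis, an uptake and a return step. Cyp26b1, which clears retinoic acid, was higher in medial, at 64.5, 55.5 and 59.7 RPKM against 24.4, 33.4 and 24.5 RPKM in lateral libraries (-1.14 ± 0.16, adjusted p = 0.0127). Aldh1a3, the other dehydrogenase tested, was at 8.97, 1.94 and 3.55 RPKM in lateral and 9.85, 7.25 and 20.3 RPKM in medial libraries and was not called (adjusted p = 0.267), nor was Rdh10, the retinol dehydrogenase (adjusted p = 0.320). The median over the 13 was 0.06. Aldh1a2 and Dhrs3 held in all fits that left out a library. Stra6 reached 0.0604 without lateral replicate 2 and Cyp26b1 reached 0.0598 without lateral replicate 3.

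In the BMP pathway 5 of the 27 tested members were higher in medial and 1 in lateral, with a median log2 difference of -0.24. Of the 27, 2 (Bmp3 and Chrdl1) reached the minimum in lateral libraries alone and 3 in medial libraries alone. The minimum fixed their direction. The ligand Bmp2 stood at 36.1, 33.0 and 29.5 RPKM in medial and 17.0, 17.7 and 16.3 RPKM in lateral libraries (-0.94 ± 0.12, adjusted p = 0.00949). Smad9, which carries the signal, and Id1 and Id4, known targets of it, were also higher in medial, with log2 differences of -1.54 ± 0.20, -0.94 ± 0.16 and -1.17 ± 0.12. Id2 and Id3, of the same family as Id1 and Id4, were tested and not called, and the activity of the pathway was not tested. Bmp3, a member of the family that opposes others, was the lateral call, at 9.76, 11.5 and 14.98 RPKM in lateral and 1.94, 1.28 and 4.22 RPKM in medial libraries (2.38 ± 0.39, adjusted p = 0.0244). Bmp4 was at 38.2, 21.6 and 26.1 RPKM in lateral and 6.45, 15.6 and 25.4 RPKM in medial libraries, and the groups overlapped (adjusted p = 0.370). The antagonist Grem1 was at 4.596, 8.94 and 8.05 RPKM in lateral and 15.1, 15.1 and 17.7 RPKM in medial libraries and missed the threshold (adjusted p = 0.0547), as did Chrdl1 at 9.58, 9.15 and 8.05 RPKM in lateral and 2.58, 4.12 and 1.18 RPKM in medial libraries (adjusted p = 0.0534). Id4 was called whichever library was left out. The highest adjusted p of Bmp2, Smad9 and Id1 was 0.0561 (without lateral replicate 3), 0.0554 (without lateral replicate 3) and 0.115 (without lateral replicate 3).

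Of 19 tested members of the TGF-beta and activin pathway 3 were higher in lateral and 2 in medial. Tgfb3, the ligand of the fusing seam, was at 40.7, 43.7 and 44.2 RPKM in lateral and 24.5, 22.1 and 25.6 RPKM in medial libraries (0.83 ± 0.11, adjusted p = 0.0126). Tgfbr3, a co-receptor, and Ltbp4, which binds the latent ligand in matrix, had log2 differences of 0.94 ± 0.13 and 1.18 ± 0.13. The medial genes were Tgfbi and Ctgf, secreted matrix proteins that TGF-beta is known to induce. Ctgf was at 35.9, 43.7 and 47.5 RPKM in medial and 10.3, 11.5 and 9.58 RPKM in lateral libraries (-2.00 ± 0.14, adjusted p = 0.00113), and Tgfbi was at 45.4, 46.6 and 55.6 and 21.3, 24.7 and 21.8 RPKM (-1.12 ± 0.13, adjusted p = 0.00649). The pathway's median was 0.12. Ltbp4, Tgfbi and Ctgf held whichever library was left out, and Tgfb3 reached 0.0665 without lateral replicate 3 and Tgfbr3 0.0702 without lateral replicate 3.

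No member of the hedgehog pathway passed the test among 10 tested, and 3 had an unadjusted p under 0.05, 2 of them higher in lateral, as 7.31% of all genes tested were, and 1 higher in medial, as 7.71% were. Ptch1, receptor and target, was at 96.3, 94.9 and 90.4 RPKM in lateral and 56.1, 56.8 and 81.5 RPKM in medial libraries (adjusted p = 0.153). Gli1, a factor that hedgehog signals induce, was at 18.1, 20.2 and 20.3 RPKM in lateral and 10.5, 8.14 and 16.4 RPKM in medial libraries (adjusted p = 0.159). Medial replicate 3 was the highest medial library for both. Gas1, a co-receptor, was at 36.9, 38.7 and 36.1 RPKM in lateral and 48.5, 45.8 and 48.9 RPKM in medial libraries (adjusted p = 0.1499).

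Among 15 tested genes of the FGF and ERK pathway, Fgf18 was higher in lateral and Fgfr2 higher in medial. Fgf18, a ligand of bone and cartilage growth, was at 34.5, 32.8 and 29.1 RPKM in lateral and 16.9, 16.1 and 11.7 RPKM in medial libraries (1.12 ± 0.17, adjusted p = 0.0170). The receptor Fgfr2 was at 22.8, 20.5 and 19.4 RPKM in lateral and 30.2, 33.2 and 32.3 RPKM in medial libraries (-0.61 ± 0.12, adjusted p = 0.0427). Neither call held in all fits that left out a library, with a highest adjusted p of 0.0686 without lateral replicate 2 and of 0.167 without lateral replicate 3. Fgf10, a mesenchymal ligand, was below the expression minimum and was not tested, at 6.53, 3.83 and 4.87 RPKM in lateral and 1.74, 1.27 and 0.472 RPKM in medial libraries. Etv5, a factor that FGF signals are known to induce, was at 19.2, 11.2 and 13.0 RPKM in lateral and 5.79, 4.80 and 8.37 RPKM in medial libraries and missed the threshold (adjusted p = 0.0682).

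Of 34 tested Wnt pathway genes 3 were higher in lateral and 2 in medial, with a median of -0.01. Wnt2, Fzd6 and Wisp1 reached the minimum in lateral libraries alone and Lgr6 in medial libraries alone, which fixed their direction. The ligand Wnt2 was at 7.12, 10.05 and 8.90 RPKM in lateral and 2.17, 2.31 and 2.62 RPKM in medial libraries (1.82 ± 0.16, adjusted p = 0.00222). The receptor Fzd6 was at 8.28, 7.64 and 8.16 RPKM in lateral and 2.09, 1.82 and 3.28 RPKM in medial libraries (1.75 ± 0.21, adjusted p = 0.00691). Wisp1, a secreted protein that Wnt signals induce, was at 6.80, 5.67 and 6.99 RPKM in lateral and 3.70, 2.49 and 3.56 RPKM in medial libraries (0.99 ± 0.18, adjusted p = 0.0333). On the medial side stood Tcf7, a nuclear partner of beta-catenin, at 26.5, 19.8 and 19.0 RPKM against 9.60, 5.33 and 8.38 RPKM in lateral libraries, and Lgr6, an R-spondin receptor, at 11.3, 8.20 and 8.77 RPKM against 3.28, 2.41 and 4.09 RPKM. Their log2 differences were -1.50 ± 0.24 and -1.52 ± 0.21. Wnt5a, a ligand of the anterior palate, was at 102, 94.0 and 92.6 RPKM in lateral and 73.9, 66.3 and 99.0 RPKM in medial libraries and was not called (adjusted p = 0.476). Wnt2, Fzd6 and Lgr6 held whichever library was left out, and Wisp1 and Tcf7 reached 0.135 (without lateral replicate 3) and 0.0703 (without lateral replicate 3). Lgr6 had the opposite sign, 0.40, in the fit with the run.

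Notch receptors act between neighbouring cells and switch on genes of the Hes and Hey families. Of 13 tested members Hey2 and Heyl were higher in lateral and none was higher in medial, and the median was 0.50. Hey2 reached the minimum in lateral libraries alone, which fixed its direction. Hey2 was at 7.51, 8.81 and 6.41 RPKM in lateral and 1.38, 1.57 and 1.65 RPKM in medial libraries (2.23 ± 0.15, adjusted p = 0.000799). Heyl was at 19.5, 21.7 and 19.4 RPKM in lateral and 8.84, 5.89 and 4.69 RPKM in medial libraries (1.67 ± 0.22, adjusted p = 0.0104). Notch1 at 16.6, 15.5 and 17.0 RPKM in lateral and 11.1, 6.60 and 10.8 RPKM in medial libraries missed the threshold (adjusted p = 0.0987), as did Hey1 at 11.0, 14.3 and 13.7 and 4.52, 0.691 and 7.83 RPKM (adjusted p = 0.239). For Hey1 the spread lay in the medial libraries, where replicate 2 was the lowest. Hey2 held whichever library was left out and Heyl reached 0.0510 without medial replicate 2. The 250 bases before the start of Hey2 are shown because Hey2 had the largest called difference of the pathway and they hold the letters GTGGGAA, the core that the Notch partner RBPJ binds (RefSeq, build GRCm38.p6, chr10:30842784-30843033, minus strand, written 5′ to 3′ with the match in capitals, here on the opposite strand as TTCCCAC).
Hey2: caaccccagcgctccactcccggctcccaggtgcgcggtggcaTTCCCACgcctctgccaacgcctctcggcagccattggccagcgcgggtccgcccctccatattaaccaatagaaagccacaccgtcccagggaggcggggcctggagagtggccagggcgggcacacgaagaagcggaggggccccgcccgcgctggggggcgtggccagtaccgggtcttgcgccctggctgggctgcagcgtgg
Read on both strands, GTGGGAA occurred in 5.42% of 32851 promoter windows of 250 bases, and in 3 of the 16 Notch list members with an entry (Hes5, Hey2 and Lfng).

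Hey2, Gja5 and their like also mark arteries, and calls in the arterial and the smooth muscle lists were all on the lateral side. Of 10 tested arterial genes 5 were higher in lateral (Gja5, Gja4, Hey2, Nrp1 and Unc5b), none in medial, and the median log2 difference was 1.50. The share of all genes tested that was called higher in lateral was 1.43%. All 5 calls held whichever library was left out, and 4 of the 10 genes reached the minimum in lateral libraries alone. The summed level of the arterial list was 213 to 243 RPKM in lateral and 104 to 117 RPKM in medial libraries. Gja4, another arterial gap junction protein, was at 16.6, 22.4 and 17.8 RPKM in lateral and 5.65, 5.07 and 3.99 RPKM in medial libraries (1.93 ± 0.17, adjusted p = 0.00289). Of 21 tested smooth muscle and pericyte genes 9 were higher in lateral (Actg2, Myh11, Synpo2, Pgm5, Aoc3, Abcc9, Mcam, Heyl and Gucy1a3) and none in medial, with a median of 1.10 and a sum of 543 to 563 RPKM in lateral and 313 to 415 RPKM in medial libraries. Of the 21 tested genes 3, Actg2 and Myh11 among them, reached the minimum in lateral libraries alone, which fixed their direction. Actg2, Myh11, Abcc9 and Gucy1a3 were the 4 that held whichever library was left out. Other contractile genes were not called. Acta2, the most used smooth muscle mark, was at 53.6, 52.2 and 53.5 RPKM in lateral and 52.9, 41.9 and 21.5 RPKM in medial libraries (adjusted p = 0.461), and Tagln was at 14.49, 12.3 and 11.3 and 27.8, 26.3 and 9.76 RPKM (adjusted p = 0.524). The pericyte gene Rgs5 was at 27.5, 29.8 and 24.7 RPKM in lateral and 15.4, 5.80 and 10.3 RPKM in medial libraries and missed the threshold (adjusted p = 0.0635).

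General endothelial genes differed less. Of 26 tested, 1 (Ptprb, a phosphatase of vessels, 1.16 ± 0.15) was called, the median was 0.42 and the list summed to 515 to 557 RPKM in lateral and 369 to 479 RPKM in medial libraries. An unadjusted p under 0.05 was reached by 15 of the 26, all higher in lateral, as 7.31% of all genes tested were. Cdh5, the cadherin of endothelium, was at 59.1, 65.4 and 69.2 RPKM in lateral and 57.6, 42.2 and 45.6 RPKM in medial libraries (adjusted p = 0.229). Pecam1 was at 28.6, 31.3 and 29.4 RPKM in lateral and 23.1, 27.2 and 18.3 RPKM in medial libraries (adjusted p = 0.296). Lateral values exceeded all medial values for both, by less than the arterial genes did. Lyve1, a mark of lymph vessels and some macrophages, was at 6.84, 7.81 and 9.53 RPKM in lateral and 0.352, 1.29 and 3.08 RPKM in medial libraries (adjusted p = 0.0756). No marker named here was at 0 in either group. The part of the vessel lists in the Notch, connexin and Nrp1 differences was not tested. Gja1, a gap junction protein of mesenchyme, and Panx1, a pannexin channel, went the other way and were higher in medial, at -0.90 ± 0.17 and -1.26 ± 0.21, so that 4 of 6 tested genes of the connexin list were called, 2 in each direction. The calls of Gja1 and Panx1 reached adjusted p of 0.158 (without lateral replicate 3) and 0.0989 (without medial replicate 2).

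Growth factor genes outside these families included Igf1 and Egfr. Igf1 was at 125, 116 and 77.8 RPKM in medial and 38.1, 20.6 and 21.4 RPKM in lateral libraries (-2.02 ± 0.28, adjusted p = 0.0132). Igfbp2, which binds it, went the other way, at 48.0, 73.0 and 88.2 RPKM in lateral and 26.0, 20.8 and 24.8 RPKM in medial libraries (1.50 ± 0.23, adjusted p = 0.0178). The receptor Egfr was at 10.5, 8.53 and 7.14 RPKM in lateral and 2.32, 2.21 and 2.83 RPKM in medial libraries (1.78 ± 0.17, adjusted p = 0.00344). Vegfc, a ligand of lymph vessel growth, was higher in lateral and Pdgfrl, a receptor-like protein, higher in medial, at 1.25 ± 0.23 and -1.08 ± 0.21. Of the 19 tested members of the EGF, PDGF, VEGF and IGF list these 5 were called, with a median of 0.14 over the list. Egfr reached the minimum in lateral libraries alone, which fixed its direction. Egfr held whichever library was left out, Vegfc and Pdgfrl reached 0.129 (without lateral replicate 2) and 0.158 (without lateral replicate 3), and the highest adjusted p of Igf1 and Igfbp2 was 0.0609 (without medial replicate 2) and 0.0720 (without medial replicate 2).

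Peptide hormones and neurotrophic factors split by gene, 2 higher in lateral and 4 in medial of 24 tested, with a median of 0.47. Of the 24, 4 reached the minimum in lateral libraries alone, Npvf, Npr3 and Nmbr among them. Another 3, Gal, Gdnf and Corin, reached it in medial libraries alone. The minimum fixed the direction of these genes. Gal and Gdnf are given above with the genes of largest fold. Receptors for these ligands were low or overlapped between the groups. Galr1, a galanin receptor, was listed at 0 in all 6 libraries, and Ret, the receptor kinase for Gdnf, did not exceed 0.212 RPKM in any. Gfra1, the binding subunit for Gdnf, was at 5.38, 6.21 and 6.92 RPKM in lateral and 7.16, 4.24 and 4.97 RPKM in medial libraries (adjusted p = 0.732). Ntrk3, a neurotrophin receptor, was at 44.3, 40.5 and 35.6 RPKM in medial and 9.89, 12.9 and 11.2 RPKM in lateral libraries (-1.82 ± 0.14, adjusted p = 0.00176). Corin, the protease that activates natriuretic peptides, was also higher in medial, at 20.5, 11.3 and 7.49 RPKM against 3.77, 2.31 and 1.70 RPKM, and the clearance receptor Npr3 was higher in lateral, at 5.53, 5.83 and 6.11 RPKM against 3.01, 2.81 and 2.16 RPKM. Their log2 differences were -2.24 ± 0.40 and 1.11 ± 0.15. Npvf, an RFamide peptide precursor, was at 5.50, 6.06 and 6.50 RPKM in lateral and 1.62, 1.61 and 2.61 RPKM in medial libraries (1.61 ± 0.20), and had the opposite sign, -2.16, in the fit with the run. Nmbr, the neuromedin B receptor, was at 20.5, 47.5 and 13.2 RPKM in lateral and 0.487, 1.94 and 4.96 RPKM in medial libraries with a wide spread and missed the threshold (adjusted p = 0.0598). Prokr1, a prokineticin receptor, was at 11.3, 19.2 and 15.2 and 5.79, 4.83 and 1.97 RPKM (adjusted p = 0.0518), and Agtr2, an angiotensin receptor, at 171, 221 and 222 and 129, 148 and 151 RPKM (adjusted p = 0.134). Gal, Npvf, Gdnf and Ntrk3 held whichever library was left out, and Corin and Npr3 reached 0.118 (without lateral replicate 3) and 0.0571 (without lateral replicate 3).

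Cartilage genes stood on the medial side. Of 24 with values 10 reached the minimum and were tested, 5 passed the test, all higher in medial, and none was called higher in lateral. The share of all genes tested that was called higher in medial was 1.08%. Of the 10 tested 5, among them Acan, Matn4, Sox5 and Col9a3, reached the minimum in medial libraries alone, which fixed their direction. Sox9 (gene 20682, chromosome 11, 112643524 to 112649071 in mm9), the master factor of cartilage, was at 73.8, 45.5 and 48.6 RPKM in medial and 10.6, 11.7 and 9.64 RPKM in lateral libraries (-2.36 ± 0.20, adjusted p = 0.00216). Its partner Sox5 was at 15.7, 15.9 and 7.79 RPKM in medial and 3.54, 2.10 and 2.91 RPKM in lateral libraries (-2.12 ± 0.31, adjusted p = 0.0163). Medial replicate 3 was the lowest medial library for Sox5. The matrix genes Acan (aggrecan) and Matn4 (a matrilin) were at 7.74, 7.05 and 6.44 and 5.71, 7.15 and 6.72 RPKM in medial and at 1.46, 0.624 and 1.51 and 0.773, 0.652 and 0.380 RPKM in lateral libraries. Their adjusted p were 0.00649 and 0.000934. Pth1r, the parathyroid hormone receptor, differed least of the 5, at -0.62 ± 0.12. Col2a1, the main collagen of cartilage, was at 24.96, 20.2 and 10.9 RPKM in medial and 9.45, 8.002 and 9.35 RPKM in lateral libraries (adjusted p = 0.145), and Col9a3 at 20.8, 16.5 and 7.34 and 3.33, 4.06 and 4.99 RPKM (adjusted p = 0.0629). Medial replicate 3 was lowest for these collagens too, and the summed level of the list was 315, 253 and 198 RPKM in medial replicates 1, 2 and 3, against 107 to 124 RPKM in lateral libraries. Sox9, Acan and Matn4 held whichever library was left out, and Sox5 and Pth1r reached 0.0649 (without lateral replicate 3) and 0.158 (without lateral replicate 2).

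The osteoblast list was divided, with 3 of 16 tested members higher in each compartment and a median of 0.03. Of the 16, 2 reached the minimum in lateral libraries alone, Fap among them. Another 2, Tnn and Ptprv, reached it in medial libraries alone. The minimum fixed the direction of these genes. Runx2, the master factor of bone, was at 56.3, 43.3 and 30.2 RPKM in medial and 18.1, 14.1 and 11.6 RPKM in lateral libraries (-1.54 ± 0.25, adjusted p = 0.0248), and Ptprv, a phosphatase of osteoblasts, at 10.2, 8.59 and 6.26 and 2.96, 0.961 and 1.92 RPKM (-2.15 ± 0.37, adjusted p = 0.0298). Enpp1, which makes pyrophosphate, and Kera, a small proteoglycan, were higher in lateral, at 1.69 ± 0.31 and 2.23 ± 0.34. Sp7, a factor of committed osteoblasts, was below the expression minimum, at 4.25, 1.58 and 3.83 RPKM in lateral and 4.40, 3.15 and 3.19 RPKM in medial libraries. Tnn and Fap held whichever library was left out. Runx2 reached 0.0943 without lateral replicate 3, Ptprv 0.110 without medial replicate 2, Enpp1 0.133 without lateral replicate 3 and Kera 0.0624 without lateral replicate 2.

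Among 57 tested matrix genes 7 were higher in lateral and 9 in medial, with a median of -0.07. Of the 57, 1 reached the minimum in lateral libraries alone and 4, Tnn and Hs3st3b1 among them, in medial libraries alone. The minimum fixed their direction. Thbs2 (gene 21826, chromosome 17, 14802507 to 14831269 in mm9), a thrombospondin, was at 61.5, 57.2 and 50.6 RPKM in medial and 15.8, 20.4 and 18.0 RPKM in lateral libraries (-1.64 ± 0.14, adjusted p = 0.00222). Tnc, the tenascin of many embryonic tissues, was at 128, 132 and 148 RPKM in medial and 84.2, 79.0 and 68.8 RPKM in lateral libraries (-0.82 ± 0.13, adjusted p = 0.0192). Col25a1 and Col16a1 were the medial collagens, at -1.49 ± 0.18 and -0.70 ± 0.11, and Col23a1 was the lateral one, at 0.86 ± 0.13. Ccdc3 and Ccdc80, secreted proteins, stood on the lateral side, at 1.84 ± 0.19 and 1.47 ± 0.20, with the proteases Adamts17 at 1.56 ± 0.18 and Mmp16 at 1.12 ± 0.12. Npnt, which encodes a ligand of an integrin, was at 19.0, 8.96 and 13.3 RPKM in lateral and 7.22, 3.22 and 5.66 RPKM in medial libraries and was not called (adjusted p = 0.109). Tnn, Thbs2, Tgfbi, Col25a1, Ctgf, Ccdc3, Adamts17, Mmp16 and Hs3st3b1 were the 9 of these 16 calls that held whichever library was left out.

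Guidance cues of axons and vessels also split, 6 of 46 tested higher in lateral and 6 in medial. Of the 46, 3 reached the minimum in lateral libraries alone, Ntng1 and Unc5b among them, and 1 in medial libraries alone. The minimum fixed their direction. Slit2 (gene 20563, chromosome 5, 48374394 to 48697017 in mm9), a repellent ligand, was at 36.4, 40.3 and 38.6 RPKM in lateral and 11.0, 11.1 and 11.5 RPKM in medial libraries (1.77 ± 0.11, adjusted p = 0.000556). Its groups were each spread over less than 4 RPKM. Ntng1, a netrin-like protein, was at 7.04, 6.01 and 5.76 RPKM in lateral and 1.33, 1.71 and 1.16 RPKM in medial libraries (2.10 ± 0.16, adjusted p = 0.00171). Nrp1, a receptor for class 3 semaphorins and for VEGF, was at 56.5, 51.7 and 55.0 RPKM in lateral and 28.4, 29.1 and 29.1 RPKM in medial libraries (0.91 ± 0.10, adjusted p = 0.00649). Of the class 3 semaphorins tested, Sema3a, Sema3c and Sema3e were higher in medial, at -0.97 ± 0.19, -2.26 ± 0.22 and -1.41 ± 0.21. Sema3d and Sema3f were tested and not called. Sema3c had the largest of these differences, with 19.6, 25.1 and 16.1 RPKM in medial and 3.61, 5.34 and 3.53 RPKM in lateral libraries (adjusted p = 0.00344). Of the netrin receptors Unc5c was higher in medial, at 41.3, 49.7 and 40.8 RPKM against 13.6, 18.8 and 16.0 RPKM, and Unc5b was higher in lateral, at 9.08, 10.8 and 8.88 RPKM against 3.62, 3.08 and 3.99 RPKM. Sema4f and Sema6a were further medial genes, and Sema5b and Sema7a further lateral genes. Slit2, Ntng1, Nrp1, Unc5b, Unc5c, Sema3c and Sema4f held whichever library was left out, Sema5b, Sema6a and Sema7a did not, and Sema3a and Sema3e reached 0.158 (without lateral replicate 3) and 0.0783 (without lateral replicate 3).

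**Figure D3:**
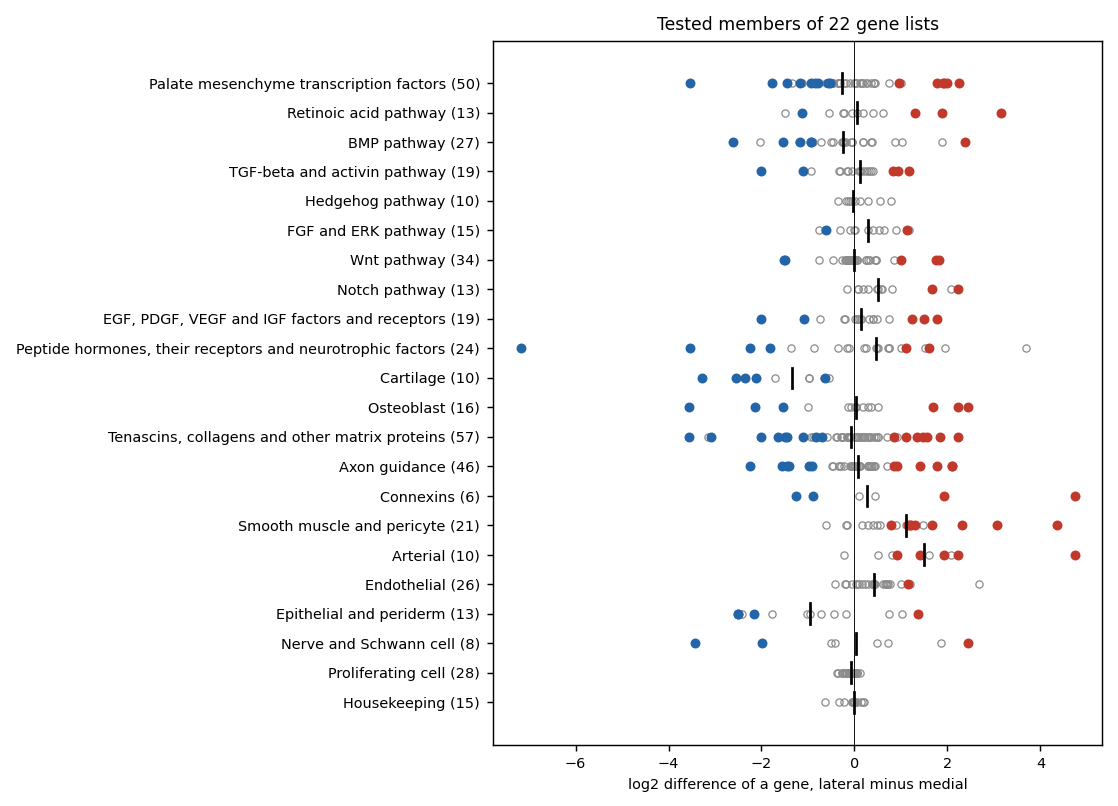
Each circle is a tested gene of the list named at left, with the number tested in brackets, placed at its log2 difference, lateral minus medial. Red circles were called higher in lateral, blue circles higher in medial, open circles were not called, and black bars are list medians. The arterial bar lies at 1.50.

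Calls in the nerve and epithelial lists went in both directions. Of 8 tested nerve and Schwann cell genes Sox10, a factor of glia and neural crest, was higher in lateral, and Prph, an intermediate filament of peripheral neurons, and Slc5a7, the choline transporter, were higher in medial. Sox10 was at 7.62, 6.10 and 6.26 RPKM in lateral and 1.12, 1.68 and 0.791 RPKM in medial libraries (2.43 ± 0.24, adjusted p = 0.00408). Prph was at 1.15, 5.0 and 4.16 RPKM in lateral and 28.9, 43.7 and 26.6 RPKM in medial libraries (-3.43 ± 0.50, adjusted p = 0.0163), and Slc5a7 at 10.04, 9.44 and 5.40 and 37.8, 30.5 and 28.9 RPKM (-1.99 ± 0.24, adjusted p = 0.00755). Fabp7, a gene of Schwann cell precursors, was not called (adjusted p = 0.0671). The list summed to 212 to 227 RPKM in lateral and 254 to 296 RPKM in medial libraries, and its part in the Gal and Gdnf differences was not tested. Of 13 tested epithelial genes Krt14, Krt17 and Krt6a were higher in medial and Krt8 in lateral, with a median of -0.95. Krt14, a keratin of basal epithelium, was at 32.5, 29.2 and 51.0 RPKM in medial and 11.4, 5.97 and 7.90 RPKM in lateral libraries (-2.15 ± 0.28, adjusted p = 0.0104). Krt17 was at 30.8, 17.8 and 25 RPKM in medial and 5.70, 2.20 and 5.65 RPKM in lateral libraries. Of the 13 genes 7 did not overlap between the groups, where 21.3% of all genes tested did not. Uncalled genes included Krt5, the partner of Krt14, at 12.4, 7.50 and 26.6 RPKM in medial and 20.1, 3.498 and 7.80 RPKM in lateral libraries (adjusted p = 0.701), and Cdh1, below the minimum, at 1.92, 2.22 and 5.12 and 2.54, 0.942 and 1.41 RPKM. The epithelial list summed to 82.7 to 159 RPKM in lateral and 170 to 261 RPKM in medial libraries, and its part in other medial differences was not tested. No epithelial call held in all fits that left out a library, and Krt14, Krt6a, Krt17 and Krt8 reached 0.0550 (without lateral replicate 3), 0.102 (without medial replicate 1), 0.0629 (without medial replicate 1) and 0.117 (without medial replicate 3).

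Other marker lists gave few or no calls. None of 28 tested genes of proliferating cells passed (2 had an unadjusted p under 0.05), none of 15 housekeeping genes (1), none of 10 macrophage genes (2), and none of 6 red cell genes or the 1 skeletal muscle gene tested (0 in each). Over all genes tested 7.31% had an unadjusted p under 0.05 and were higher in lateral, and 7.71% were higher in medial. The summed levels of these 5 lists overlapped between the groups.

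Of the 3 short RNA genes among the calls 2 are microRNA loci, and the values come from amplified total RNA libraries, so they count reads on the locus and not mature molecules. Mirlet7e was at 9.10, 7.16 and 10.6 RPKM in the lateral libraries and listed at 0 in all medial libraries, which on its 93 bases stands for 2.00 to 2.54 reads in lateral libraries, while 3 reads in a medial library would be 9.84 to 9.95 RPKM. Its call (limma adjusted p = 3.06e-06) thus rests on few reads. Each lateral value stands for fewer reads than the 3 that a reading of 0 allows in a single library. Between single libraries the difference does not exceed counting error at this depth. Counting error over the 3 libraries of each group together was not tested. Mir377 was at 66.1, 57.1 and 48.6 RPKM in lateral and 29.3, 35.8 and 30.0 RPKM in medial libraries (0.85 ± 0.15, adjusted p = 0.0339), or 8.52 to 12.5 reads in lateral and 6.52 to 7.98 reads in medial libraries on 68 bases. The mature arms of both loci are shown to tell the hairpins apart, from RefSeq (GRCm38.p6), with the seed, bases 2 to 8, in capitals.
mmu-let-7e-5p: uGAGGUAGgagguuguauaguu
mmu-let-7e-3p: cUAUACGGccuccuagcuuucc
mmu-miR-377-5p: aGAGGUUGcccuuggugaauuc
mmu-miR-377-3p: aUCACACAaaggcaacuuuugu
No seed is shared among these 4 arms. Snora3, a small nucleolar RNA, was at 39.3, 36.8 and 32.6 RPKM in lateral and 23.5, 23.3 and 23.9 RPKM in medial libraries (0.61 ± 0.12, adjusted p = 0.0415). Mir377 and Snora3 were picked out after their values were seen, and calls on such short genes rest on few reads. Their adjusted p reached 0.116 (without lateral replicate 2) and 0.152 (without lateral replicate 2). Gkn3, a gastrokine, was the other gene listed at 0 in all medial libraries, at 7.16, 5.22 and 7.34 RPKM in the lateral ones (adjusted p = 3.06e-06).

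The genes called here were then followed in libraries that took no part in the comparison. In the anterior palate 107 of the 149 lateral genes (71.8%) had a higher mean in oral than in nasal tissue, against 48.2% of all genes tested, and 98 of the 113 medial genes (86.7%) had a higher mean in nasal tissue, against 51.8%. The oral and nasal libraries came from 3 runs that hold both of those compartments and none of the 6 libraries compared here. Within the single runs 76 to 112 of the 149 lateral genes were higher in oral tissue (51.0% to 75.2%, where 40.3% to 59.0% of all genes tested were) and 84 to 93 of the 113 medial genes were higher in nasal tissue (74.3% to 82.3%, against 41.0% to 59.6%). In each of the 3 runs most medial genes were thus higher in nasal tissue.

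In the posterior palate 103 of the 149 lateral genes (69.1%) had a higher mean in lateral than in medial, as did 55.3% of all genes tested. Of the 113 medial genes 63 (55.8%) had a higher mean in posterior medial, as did 44.7% of all genes tested. Posterior lateral replicates 2 and 3 share the run of anterior lateral replicate 3, and posterior medial replicates 2 and 3 share the run of the anterior medial libraries. In these the lateral genes kept their direction for 108 of 149 (72.5%, against 54.9% of all genes tested) and the medial genes for 61 of 113 (54.0%, against 45.0%). In replicate 1 of either compartment, from other runs, they kept it for 78 of 149 (52.3%, against 49.3%), and the medial genes kept it for 67 of 113 (59.3%, against 50.7%). All of these shares are descriptions, with no test.

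Single genes differed in how far they kept their direction. Aldh1a2 was at 1.06, 8.71 and 3.23 RPKM in posterior lateral and 0.487, 0 and 0.229 RPKM in posterior medial libraries, the anterior direction. Gal was at 0, 1.20 and 0 RPKM in posterior lateral and 2.89, 5.48 and 12.9 RPKM in posterior medial libraries. Egfr was at 23.0, 27.0 and 21.8 RPKM in posterior lateral and 4.57, 4.25 and 2.41 RPKM in posterior medial libraries. All 3 kept the anterior order of means. Gja5, so different in the anterior palate, was at 6.84, 1.72 and 3.93 and 6.44, 0.134 and 2.21 RPKM in posterior lateral and medial libraries, and Actg2 was at 0.238, 0.592 and 0.605 and 0.518, 0 and 0.730 RPKM. Bmp3 was at 23.9, 9.50 and 42.2 RPKM in posterior lateral and 66.6, 37.7 and 65.03 RPKM in posterior medial libraries, the opposite order of means. Tnn was at 11.5, 36.6 and 24.4 and 17.0, 46.3 and 39.8 RPKM in posterior lateral and medial libraries, 6.78, 4.44 and 3.88 RPKM in anterior oral and 26.0, 40.7, 42.9 and 25.7 RPKM in anterior nasal libraries.

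**Figure D4:**
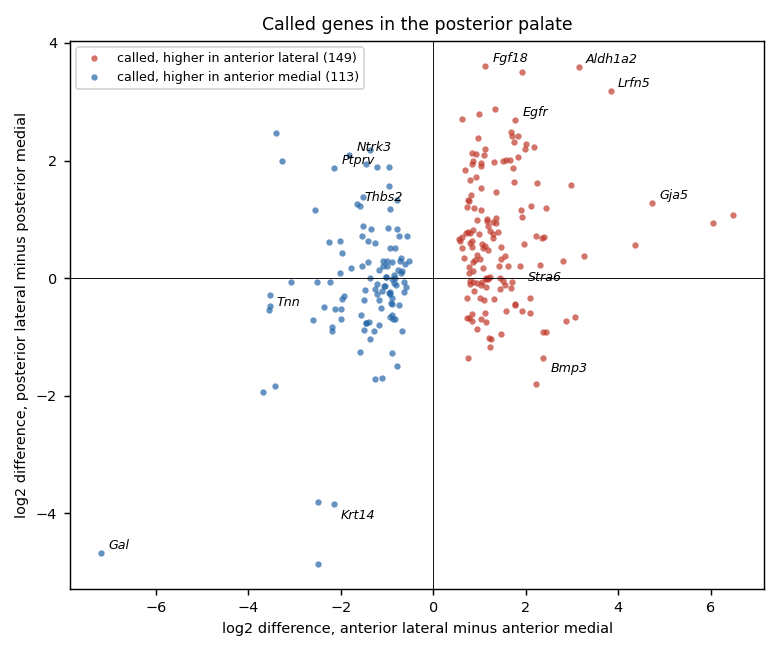
Each point is 1 of the 262 called genes, with its log2 difference between anterior lateral and anterior medial on the horizontal axis and between posterior lateral and posterior medial on the vertical axis. Red points were higher in anterior lateral and blue points in anterior medial, and 103 red points lie above 0 and 63 blue points below 0.

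Whether a lateral against medial difference itself differed between the anterior and the posterior palate was tested over 12 libraries and 11089 genes. Thbs2 was the only gene with an adjusted p under 0.05 (0.00902% of genes), and 373 genes (3.36%) had an unadjusted p under 0.05. In posterior lateral libraries Thbs2 was at 47.1, 70.2 and 56.2 RPKM and in posterior medial libraries at 23.0, 19.7 and 29.8 RPKM, so that it was higher in medial in the anterior and higher in lateral in the posterior palate. The difference between the differences was -2.90 ± 0.31 (SE, log2, adjusted p = 0.0296), and it was called under 11 of 22 alternatives, with adjusted p from 0.00743 to 0.216. Leaving out any 1 of the 3 anterior lateral or 3 anterior medial libraries ended the call, with adjusted p from 0.113 to 0.188, as did leaving out posterior lateral replicate 2 (0.114), posterior lateral replicate 3 (0.0577) or posterior medial replicate 1 (0.0595). Posterior medial replicate 2 stood apart, with 12935 genes above 0 where the other posterior lateral and medial libraries had 16330 to 18985, and without it the adjusted p was 0.0233. For Gja5 the same test gave 3.45 ± 1.42 (adjusted p = 0.964), for Aldh1a2 -0.45 ± 1.08 (adjusted p = 0.969) and for Gal -2.51 ± 1.55 (adjusted p = 0.964), so none of these was shown to differ between the anterior and posterior palate.

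**Figure D5:**
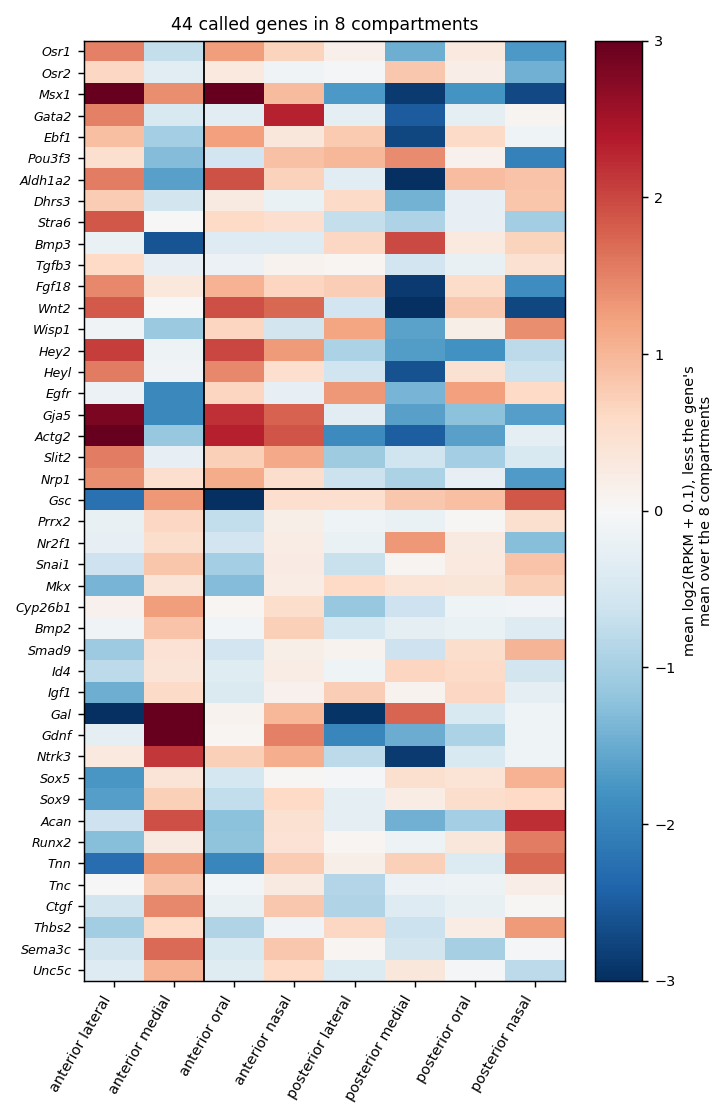
Colours give the mean log2(RPKM + 0.1) of 44 called genes in each of the 8 compartments, less the gene's own mean over the 8, from blue (lower) to red (higher), with colours held at 3 to either side. Genes above the horizontal line were higher in anterior lateral and genes below it in anterior medial, and the 2 columns left of the vertical line are the compared compartments. Thbs2 is blue in anterior lateral and red in posterior lateral.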

How the data were processed

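The authors deposited 1 table of RPKM values for 37406 genes in 25 libraries. Per the study's methods, reads with more than 1 alignment and duplicate reads were removed in GeneSpring before RPKM were formed, which can compress the values of abundant genes, and the submitters' processing notes name TopHat and mm9. No read counts were used, and no scaling was added. All 25 columns were matched to samples by their labels.

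Values were compared as log2(RPKM + 0.1) with limma 3.58.1 (lmFit and eBayes, R 4.3.3) on the 6 libraries alone, over the genes that reached 5 RPKM in 3 or more of them, with Benjamini-Hochberg adjustment over all genes tested and no pairing of replicate numbers. The anterior against posterior contrast used 12 libraries and the same minimum. With 3 libraries against 3 an exact permutation test cannot reach 0.05, so none was run. A call is an adjusted p under 0.05.

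The totals of reads were worked out from short genes with 1 exon. The sequencing run was read from the names of the alignments. The genes named are the 15 of largest fold in each direction among calls whose groups do not overlap, genes listed at 0 in a whole group, members of 30 gene lists, and the genes the study names for this comparison, a few of which are not reported here. The members and lists were chosen with earlier results of these data known. Where a symbol has several rows, the row of highest mean was used. The test was checked on simulated data. Alternatives were other pseudocounts (1 and 0.01), centring, quantile normalization, a mean-variance trend, a replicate block, other expression minimums, all 25 libraries with and without the run, and leaving out each library. Shares by run were added after seeing the data. Figures were drawn with Python 3.11.15 and matplotlib 3.10.9.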

Additional observations from a re-analysis of the deposited data

Results flagged for a closer look

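Thbs2 stood out because its lateral against medial difference was -1.64 in the anterior palate and of the other sign in the posterior palate, and the difference between the differences, tested in 1 model, was -2.90 (log2, limma adjusted p = 0.0296). Its mean was 18.1 ± 2.29 RPKM in anterior lateral, 56.4 ± 5.50 RPKM in anterior medial, 57.8 ± 11.6 RPKM in posterior lateral and 24.2 ± 5.11 RPKM in posterior medial libraries (SD, n = 3 each).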

How the results depend on the processing

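The 262 genes kept their sign under all alternatives on these 6 libraries in which they were tested, and 256 kept it in the fit with the run. The count of calls was 258 to 318 under the other pseudocounts, centring, quantile normalization and the mean-variance trend, and 197 at a minimum of 10 RPKM. It was 157 (87 lateral, 70 medial) with the replicate block, 157 (107 lateral, 50 medial) with no filter on low values, 31 (15 and 16) with the spread of all 25 libraries and 0 with the run. Leaving out 1 library gave 104 to 226 calls, 59 to 131 lateral and 45 to 96 medial. At the study's thresholds the count of 247 became 986 with no filter, 123 at 10 RPKM and 143 with the run, and 241 to 292 without 1 library. The interaction gave 6 genes at a pseudocount of 1, 2 under quantile normalization, 0 with the replicate block or no filter, 10 with all 25 libraries, 3 with the run and 0 to 9 without 1 library. Counts of kept direction ranged without 1 library from 91 to 111 and 54 to 68 in the posterior palate and from 99 to 110 and 91 to 97 in oral against nasal tissue. The block ended 28 calls of named genes. Equal replicate numbers did not mark shared deviations (r of 0.0042, -0.15 and 0.0072 across genes, and no library correlated best with its own number). With 3 libraries per group these values cannot show whether equal numbers shared an embryo or litter. In the fit with the run Lgr6 (0.40), Npvf (-2.16), Grem1 (1.01) and Krt5 (0.64) changed sign. In that fit the term of the run that holds only lateral replicates 1 and 2 took up both, so the lateral estimate rested on lateral replicate 3. The cause of these changes was not tested. The depth, 2580000 to 3280000 reads, limits genes near 5 RPKM.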

Other observations

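Calls among genes of the interferon response were on the medial side. Of 7 tested members of a list of 20, 4 were called, all higher in medial, where 1.08% of all genes tested were. Of the 7, 6 had a log2 difference below 0 and 1 above 0, and the median log2 difference was -0.90. Rtp4, which an interferon signal induces, was at 9.49, 9.94 and 9.22 RPKM in medial and 2.74, 2.50 and 4.40 RPKM in lateral libraries (-1.58 ± 0.21, limma adjusted p = 0.0102). Oasl2 was at 7.97, 12.04 and 8.50 RPKM in medial and 4.92, 3.82 and 4.15 RPKM in lateral libraries (-1.11 ± 0.18, adjusted p = 0.0248). The signal transducer Stat2 differed by -0.60 ± 0.12. The minimum was reached in medial libraries alone by 2 of the 7. The list summed to 58.2 to 73.3 RPKM in lateral and 108 to 109 RPKM in medial libraries. Rtp4 held whichever library was left out, and Oasl2 and Stat2 reached adjusted p of 0.103 (without lateral replicate 3) and 0.162 (without lateral replicate 2). Macrophage genes summed to 99.4 to 188 RPKM in lateral and 102 to 273 RPKM in medial libraries, and the groups overlapped.

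Of 15 tested stress and immediate early genes Hspb8, a small heat shock protein, was called, at 9.62, 12.3 and 10.6 RPKM in medial and 5.69, 4.23 and 3.64 RPKM in lateral libraries (-1.26 ± 0.18, adjusted p = 0.0163, and 0.0663 without lateral replicate 2). An unadjusted p under 0.05 was reached by 5 of the 15, 3 higher in lateral and 2 in medial, where 7.31% and 7.71% of all genes tested were. Pgk1, a glycolysis gene on the housekeeping list, was at 67.3, 85.4 and 73.5 RPKM in medial and 50.2, 48.5 and 46.5 RPKM in lateral libraries with no overlap (adjusted p = 0.0506).

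Hs3st6, a heparan sulfate sulfotransferase like the called Hs3st3b1, was at 6.66, 16.1 and 12.9 RPKM in medial and 3.64, 0.254 and 1.44 RPKM in lateral libraries and missed the threshold (adjusted p = 0.0972).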
